A study of Sus scrofa with 36 samples.

Results

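IFIH1 and 8 interferon-stimulated genes (MX1, MX2, ISG15, IFIT1, IFIT2, IFIT3, RSAD2 and IRF7) were followed in the cerebellum of formula-fed piglets. The gene that set the list was selected on its diet difference in these same samples: IFIH1 had the leading diet difference among the immune genes, and the other 8 were listed by name to see whether they followed it. Of the 9 genes, 8 were among the 31907 gene identifiers with counts, and IFIT3 was not analysed here. All 8 counted genes passed the filter on low counts that left 15356 genes for testing.

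Cells sense viral RNA in the cytosol through helicases of the RIG-I family, of which IFIH1, also called MDA5, binds long double-stranded RNA. Its signal leads to the production of type I interferon, and interferon bound to its receptor activates transcription factors such as STAT2 and IRF9, which switch on a large set of interferon-stimulated genes. IFIH1 is itself such a gene, and many genes of the set are transcribed at a low level in the brain without any infection.

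The data are RNA-seq counts from the cerebellum of 36 term-born crossbred piglets of both sexes, 1 library per piglet, with 9 piglets in each of 4 groups. Piglets of normal birth weight (NBW) or with intrauterine growth restriction (IUGR, a low weight and altered head shape at birth) came from a farm at 3 days of age and were fed formula for 3 weeks, in which the fat came from vegetable oil in the VEG diet and from cow's milk in the MILK diet. The groups are named after diet and birth weight, from VEG-NBW to MILK-IUGR, and all piglets were housed singly, were given equal amounts of formula per body weight and were treated against coccidiosis. Piglets with diarrhoea also received antibiotics, and neither this treatment nor the litter is given for single piglets, so that neither could enter the tests.

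The study left out 3 libraries of low RNA quality without naming them. In their place, the library with the highest share of unassigned reads in each of VEG-NBW, VEG-IUGR and MILK-NBW (piglets 202, 210 and 213) was left out. These shares were 43.6, 64.3 and 31.5%. Piglet 213 lay close to the highest kept share and had 19532 detected genes, so its choice is the least certain. The remaining 33 libraries held 15516541 to 23027502 counts on genes and 18635 to 19682 detected genes, and 26.7 to 30.5% of their reads were not assigned to a gene. There were 12 lists of cell type markers, among them those of granule neurons, Purkinje cells, Bergmann glia, oligodendrocytes, microglia and blood cells. Not every listed marker had a counted identifier. None that had one was at 0 in all 33 libraries, though some were close to it (the B cell marker MS4A1 had 0 to 3 counts). Levels are given as CPM, a gene's count set against the library's total count as scaled by TMM, and they cannot be compared between genes because they are not divided by gene length. Tests compare piglets, in bulk tissue, where fewer cells of a type and less RNA per cell cannot be told apart.

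IFIH1 was the gene behind the selection, so its diet difference is given as a description, with no test. In assembly Sscrofa11.1 it spans 68930998 to 68985145 on chromosome 15. Its level ran from 0.522 to 3.58 CPM in VEG-NBW (median 1.71, n = 8) and from 0.934 to 2.46 CPM in VEG-IUGR (median 1.67, n = 8). In MILK-NBW it ran from 1.65 to 5.47 CPM (median 2.57, n = 8), and in MILK-IUGR from 1.18 to 4.77 CPM (median 2.33, n = 9). Both MILK medians lay above both VEG medians, all 4 ranges overlapped, and within each diet the medians of the birth weight groups were closer together than the SD between piglets. The MILK piglets averaged 2.64 ± 1.16 CPM (SD, n = 17) and the VEG piglets 1.75 ± 0.760 CPM (SD, n = 16), a log2 fold change of 0.61. The diets overlapped widely between single piglets. Of all pairings of a MILK with a VEG piglet, the MILK piglet was higher in 76.5%, and 3 MILK piglets stood above every VEG piglet. Both birth weight classes had the higher level on MILK, with log2 fold changes of 0.61 among NBW and 0.60 among IUGR piglets. The pooled value was 0.51 without the highest piglet, number 224 of MILK-NBW. It was 0.63 over all 36 libraries, where piglet 210 of VEG-IUGR entered with 0 counts for IFIH1. IFIH1 was counted with 11 to 101 reads per library (median 38), a depth at which counting error alone is 16.2% of the level, against a coefficient of variation of 48.6% between piglets.

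**Figure D1:**
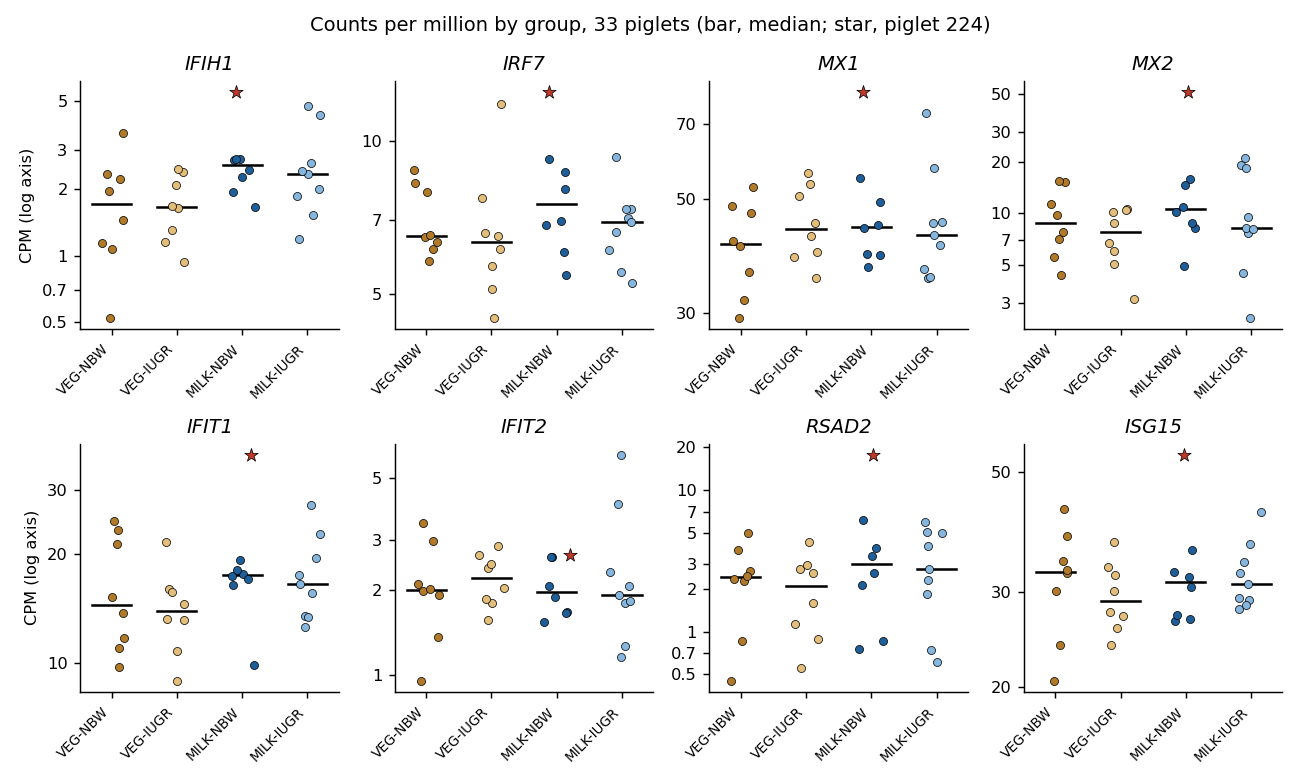
Level of the 8 counted genes (CPM, log axis) in 33 piglets of the 4 groups, each point 1 piglet, with the group median as a bar and piglet 224 of MILK-NBW as a star. Groups overlap for every gene, and piglet 224 is the highest of all 33 piglets for each gene but IFIT2.

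None of the 15356 genes (0%) had an adjusted p under 0.05 for diet in edgeR's quasi-likelihood test. DESeq2 and limma voom also called 0 genes. At an unadjusted p under 0.05, 1.95% of all genes were higher in MILK and 2.31% were lower. Of the 7 genes other than IFIH1, 2 (MX2 and RSAD2) were among those higher in MILK and 0 among those lower. All 7 had a log2 fold change above 0, with a median of 0.13, where the median over all genes was -0.0035 and 48.0% of them lay above 0. Without piglet 224 of MILK-NBW all 7 stayed above 0, but their median was 0.062. Without piglet 232 of MILK-IUGR it was 0.091, with 6 above 0. The median level was lower in MILK than in VEG for ISG15 (31.0 against 31.2 CPM) and IFIT2 (1.93 against 2.03 CPM). It was higher in MILK for MX1, MX2, IFIT1, RSAD2 and IRF7. The 7 are not independent of each other, since their levels moved together between piglets, and no adjusted p was below 0.985. For sex (male over female) the same 7 were also all above 0, with a median of 0.15, against 55.5% of all genes.

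IRF7 is the transcription factor that amplifies type I interferon production (chromosome 2, 372235 to 375572). Its level was 5.80 to 8.78 CPM in VEG-NBW (median 6.49), 4.48 to 11.8 CPM in VEG-IUGR (median 6.31), 5.45 to 12.5 CPM in MILK-NBW (median 7.52) and 5.24 to 9.29 CPM in MILK-IUGR (median 6.93). Both MILK medians lay above both VEG medians, but all ranges overlapped, with piglet 224 (MILK-NBW) and piglet 201 (VEG-IUGR) as the highest. Diet gave a log2 fold change of 0.10 ± 0.11 (SE, unadjusted p = 0.381, adjusted p = 0.985 in edgeR). Over all 36 libraries its sign turned, to -0.23, with piglet 210 of VEG-IUGR at 47.7 CPM.

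MX1 and MX2 code for dynamin-like GTPases that block the replication of viruses, MX1 being a classical marker of a type I interferon response. They are neighbours on chromosome 13 (MX1 at 204843049 to 204868927, MX2 at 204798633 to 204821612), and reads that align equally well to both would be set aside as not unique, a class that held 4.48 to 5.47% of the reads in the 33 libraries. MX1 ran from 29.4 to 52.7 CPM in VEG-NBW (median 40.9), from 35.0 to 56.2 CPM in VEG-IUGR (median 43.6), from 36.9 to 80.5 CPM in MILK-NBW (median 44.2) and from 35.2 to 73.6 CPM in MILK-IUGR (median 42.5). The 4 medians differed by less than the SD within any group, and the 2 highest values were those of piglets 224 and 232, both on MILK. Its log2 fold change for diet was 0.13 ± 0.11 (SE, unadjusted p = 0.240, adjusted p = 0.985 in edgeR), with a 95% confidence interval of -0.09 to 0.35.

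MX2 was more variable. It ran from 4.38 to 15.5 CPM in VEG-NBW (median 8.74), from 3.17 to 10.6 CPM in VEG-IUGR (median 7.74), from 4.91 to 51.3 CPM in MILK-NBW (median 10.6) and from 2.44 to 21.0 CPM in MILK-IUGR (median 8.21). Of the MILK piglets, 5 exceeded every VEG piglet and 1 fell below every VEG piglet, so that MILK held both ends of the range. For diet its log2 fold change was 0.60 ± 0.27 (SE, interval 0.06 to 1.13, unadjusted p = 0.0312, adjusted p = 0.985 in edgeR). Without piglet 224 it was 0.35 with an unadjusted p of 0.138 in the same test, and leaving out any of 4 of the 33 libraries (piglets 215, 224, 231 and 232) brought the unadjusted p to 0.05 or more.

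RSAD2, or viperin, is an enzyme that makes a chain-terminating nucleotide and interferes with viral RNA synthesis (chromosome 3, 128880853 to 128897809). Its level was 0.449 to 4.98 CPM in VEG-NBW (median 2.42), 0.554 to 4.30 CPM in VEG-IUGR (median 2.09), 0.756 to 17.7 CPM in MILK-NBW (median 3.00) and 0.610 to 5.90 CPM in MILK-IUGR (median 2.79). It had the widest spread of the 8 genes, the highest piglet being 39.3 times the lowest, and low piglets occurred in all 4 groups. The MILK mean was 3.87 ± 3.98 CPM (SD, n = 17) and the VEG mean 2.29 ± 1.34 CPM (SD, n = 16). RSAD2 had a log2 fold change for diet of 0.76 ± 0.36 (SE, interval 0.03 to 1.49, unadjusted p = 0.0430, adjusted p = 0.985 in edgeR). The call at the unadjusted threshold was not stable. Without piglet 224 the value was 0.41 with an unadjusted p of 0.225 in edgeR. Leaving out any of 14 of the 33 libraries brought the unadjusted p to 0.05 or more.

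IFIT1 and IFIT2 bind viral RNA or block its translation, and lie close together on chromosome 14 (IFIT1 at 101237403 to 101249486, IFIT2 at 101193421 to 101204292, with IFIT3 between them), and reads that align equally well to several of them would likewise not be counted. IFIT1 ran from 9.74 to 24.7 CPM in VEG-NBW (median 14.4), from 8.92 to 21.5 CPM in VEG-IUGR (median 13.8), from 9.88 to 37.4 CPM in MILK-NBW (median 17.4) and from 12.5 to 27.3 CPM in MILK-IUGR (median 16.5). Both MILK medians were above both VEG medians, as for IFIH1, IRF7 and RSAD2, and only piglets 224 and 232 exceeded every VEG piglet. For diet the log2 fold change of IFIT1 was 0.27 ± 0.15 (SE, interval -0.03 to 0.57, unadjusted p = 0.0785, adjusted p = 0.985 in edgeR).

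IFIT2 did not share that order. It ran from 0.955 to 3.45 CPM in VEG-NBW (median 2.01), from 1.56 to 2.87 CPM in VEG-IUGR (median 2.22), from 1.54 to 2.66 CPM in MILK-NBW (median 1.98) and from 1.16 to 6.02 CPM in MILK-IUGR (median 1.93). Here the medians of the MILK groups were the lower ones, while piglets 232 (6.02 CPM) and 225 (4.04 CPM) of MILK-IUGR stood above all VEG piglets. Its log2 fold change was 0.08 ± 0.19 (SE, unadjusted p = 0.660, adjusted p = 0.990 in edgeR), and it was -0.09 without piglet 232.

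ISG15 codes for a ubiquitin-like protein that is attached to other proteins during an interferon response (chromosome 6, 63363201 to 63364211). Its level was 20.5 to 42.7 CPM in VEG-NBW (median 32.7), 23.9 to 37.0 CPM in VEG-IUGR (median 28.8), 26.5 to 53.6 CPM in MILK-NBW (median 31.2) and 27.8 to 42.1 CPM in MILK-IUGR (median 31.0). Apart from piglet 224, no MILK piglet exceeded the highest VEG piglet. ISG15 had a log2 fold change for diet of 0.09 ± 0.09 (SE, interval -0.10 to 0.28, unadjusted p = 0.322, adjusted p = 0.985 in edgeR). Like IRF7 it changed sign over all 36 libraries, to -0.23, with piglet 210 at 225 CPM.

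**Figure D2:**
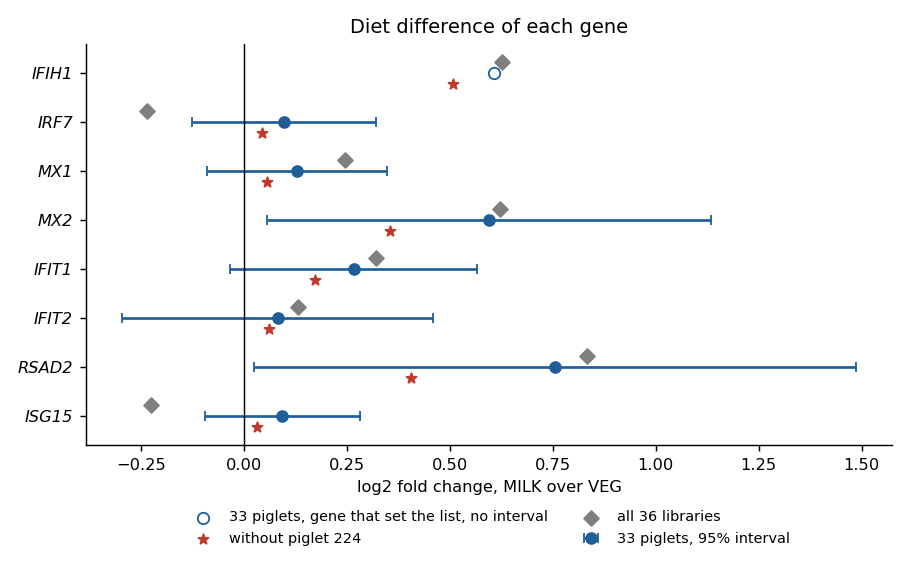
Log2 fold change (MILK over VEG) of the 8 counted genes in 33 piglets (circles, with a 95% confidence interval except for IFIH1, drawn open, which set the list by this difference), without piglet 224 (stars) and over all 36 libraries (diamonds). All circles lie above 0, the stars of RSAD2 and MX2 are at 0.41 and 0.35, and the diamonds of IRF7 and ISG15 lie below 0.

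The 3 libraries that were left out held unusual levels of these genes. Piglet 210 (VEG-IUGR) had 0 counts for IFIH1, MX1, MX2, IFIT1, IFIT2 and RSAD2, but 1806 counts for ISG15 and 382 for IRF7, and only 6513 genes were detected in it. Piglet 202 (VEG-NBW) had 120 counts for MX1, or 9.21 CPM on the scale of all 36 libraries, below every kept piglet. Piglet 213 (MILK-NBW) had 1078 counts for ISG15, more than any kept library. On that scale piglet 202 also had more ISG15 (60.9 CPM) and IRF7 (10.4 CPM) than the kept piglets of its group, and piglet 213 less MX1 (30.1 CPM) than those of its own. Both lay within the range of their groups for IFIH1 (2.38 and 2.40 CPM), MX2, IFIT1, IFIT2 and RSAD2.

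A few piglets stood out over several genes at once. Piglet 224, a MILK-NBW male, was the highest of all 33 in 7 of the 8 genes, and piglet 232, a MILK-IUGR female, was among the 5 highest in 7 of the 8. Next came piglet 231 of MILK-IUGR, among the 5 highest in 5 genes, and piglets 219 of MILK-NBW and 216 of VEG-NBW in 4 genes each. At the low end, piglet 203 of VEG-IUGR was among the 5 lowest in 6 genes. Both high and low piglets occurred in VEG and in MILK. Summed over the microglia markers, piglet 224 had 160 CPM, with 20 of the 33 piglets above it, and over the T and NK cell markers 4.17 CPM, with 14 above it. Its summed B cell markers were 2.87 CPM, exceeded in 2 piglets, and its summed neutrophil and monocyte markers 8.51 CPM, exceeded in 16. The T and NK cell sum rests mostly on NKG7 (35 to 82 counts per library) and the neutrophil and monocyte sum on CD14 (80 to 212). CD3D, CD3E and S100A12 had 0 to 6 counts each, so these ranks say little about T cells or neutrophils.

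**Figure D3:**
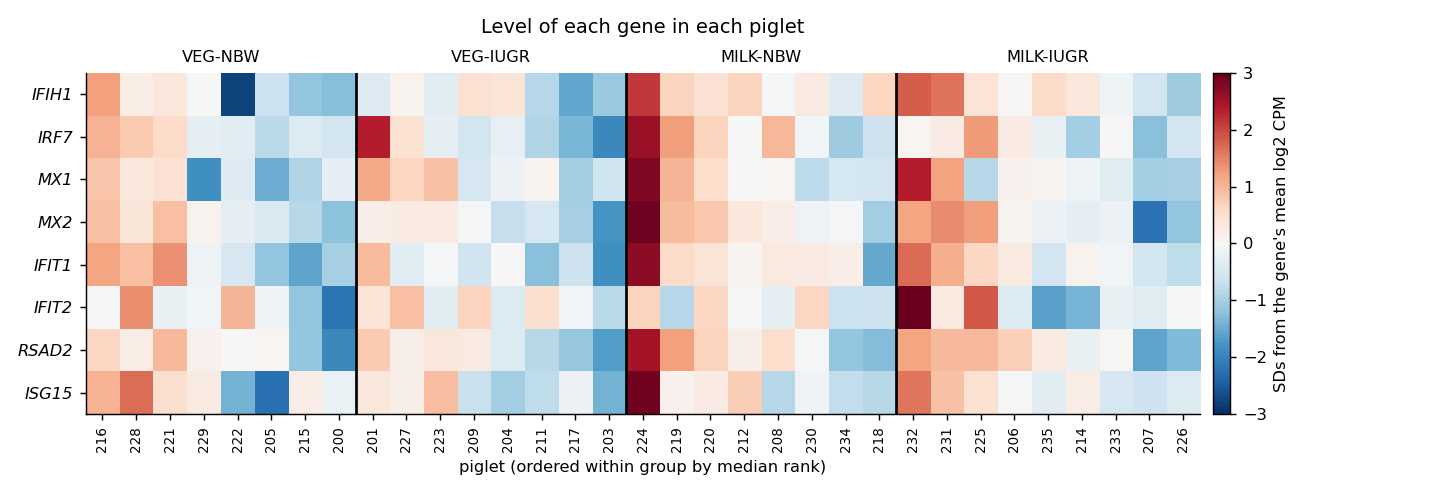
Level of each gene in each of 33 piglets, in SDs from the gene's mean log2 CPM (taken without a prior count, with colours ending at 3 SDs either way), grouped by diet and birth weight and ordered within a group by median rank. Columns tend to hold 1 colour, as in piglet 224 (highest in 7 of 8 genes) and piglet 203 (among the 5 lowest in 6).

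Across piglets the 8 genes varied together. All 28 pairs had a Pearson r above 0 between their log2 CPM values in 33 piglets, from 0.295 to 0.928 with a median of 0.683, and Spearman's rho had a median of 0.649. After adjustment over the 28 pairs, 26 had a p under 0.05 by 2-sided permutation (100000 draws), for Pearson's r and for Spearman's rho alike. MX2 and RSAD2 were the closest pair (r = 0.928, rho = 0.919, both with a permutation p of 1e-05, the smallest these draws can give, and r = 0.908 without the 2 piglets farthest from the median of MX2), although they lie on different chromosomes. MX2 and IFIT1 followed (r = 0.856, rho = 0.867, each with a permutation p of 1e-05, and r = 0.857 without 2 piglets). IFIH1 correlated with MX2 at r = 0.712 (permutation p = 3e-05) and rho = 0.695 (permutation p = 2e-05), and with IFIT1 at r = 0.698 (permutation p = 1e-05) and rho = 0.631 (permutation p = 1e-04). Without the 2 piglets farthest from the IFIH1 median these r were 0.729 and 0.687.

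IFIT2 stood apart from the other genes. Its 7 pairs had r from 0.295 (with IFIH1) to 0.485, where the 21 pairs without it had r from 0.525 to 0.928. The 2 pairs that missed the threshold were IFIT2 with IFIH1 (r = 0.295, rho = 0.240, adjusted permutation p = 0.0959 and 0.185) and IFIT2 with MX1 (r = 0.341, rho = 0.236, adjusted permutation p = 0.0551 and 0.187). IFIT2 had the largest counting error of the 8, 17.1% of its level at a median of 34 counts, close to that of IFIH1, whose pairs with the other 6 genes all passed. Whether counting error plays a part in this was not tested.

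The joint variation was also seen within groups and sexes. The median r over the 28 pairs was 0.638 within VEG-NBW, 0.663 within VEG-IUGR, 0.830 within MILK-NBW and 0.770 within MILK-IUGR. It was 0.608 in the 16 females and 0.748 in the 17 males, and 0.668 once the means of group and sex were removed. Without piglets 224 and 232, a choice made after seeing the data, it was 0.565, and all 28 r were still above 0. Over all 36 libraries, where piglet 210 enters with 6 genes at 0, 16 of 28 pairs had an r above 0 and the range was -0.781 to 0.940.

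**Figure D4:**
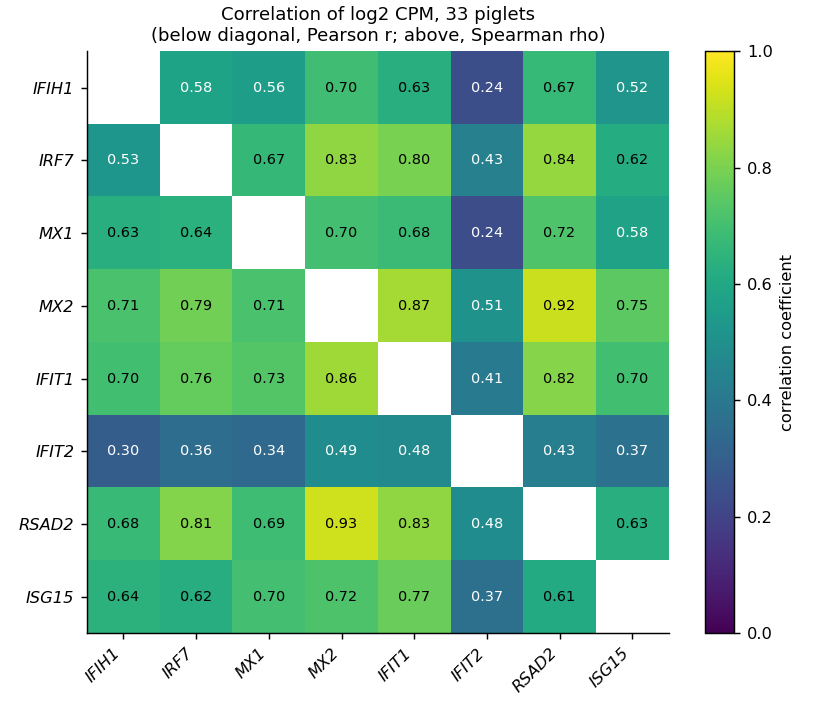
Correlation of log2 CPM between each pair of the 8 genes over 33 piglets, with Pearson's r below the diagonal and Spearman's rho above it. The lowest values lie in the row and column of IFIT2 and the highest (r = 0.928) is that of MX2 with RSAD2.

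The genes whose levels were most like IFIH1, by Pearson's r over 33 piglets and with no test, were HERC6 (r = 0.73), IFI44 (r = 0.73), an unnamed gene (ENSSSCG00000038912, r = 0.72), MX2 (r = 0.71) and IFIT1 (r = 0.70). HERC6 is an interferon-stimulated ubiquitin ligase of the HERC family and IFI44 an interferon-induced protein. Of the 50 genes most like IFIH1, 24 (48%) were on the lists of interferon-related genes, which make up 0.541% of the genes compared. The share was 42 to 62% for MX1, MX2, ISG15, IFIT1, RSAD2 and IRF7, and 12% for IFIT2, whose closest gene was LYAR (r = 0.695). Over all 36 libraries, with the 0 counts of piglet 210, the share was 36% for IFIH1, 46% for MX2, 44% for RSAD2, 18% for IFIT1, 6% for IFIT2, 4% for ISG15, 2% for IRF7 and 0% for MX1. With group and sex means removed, 23 of the 50 genes most like IFIH1 were listed, and 33 of the 50 were shared with the 50 found before.

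**Figure D5:**
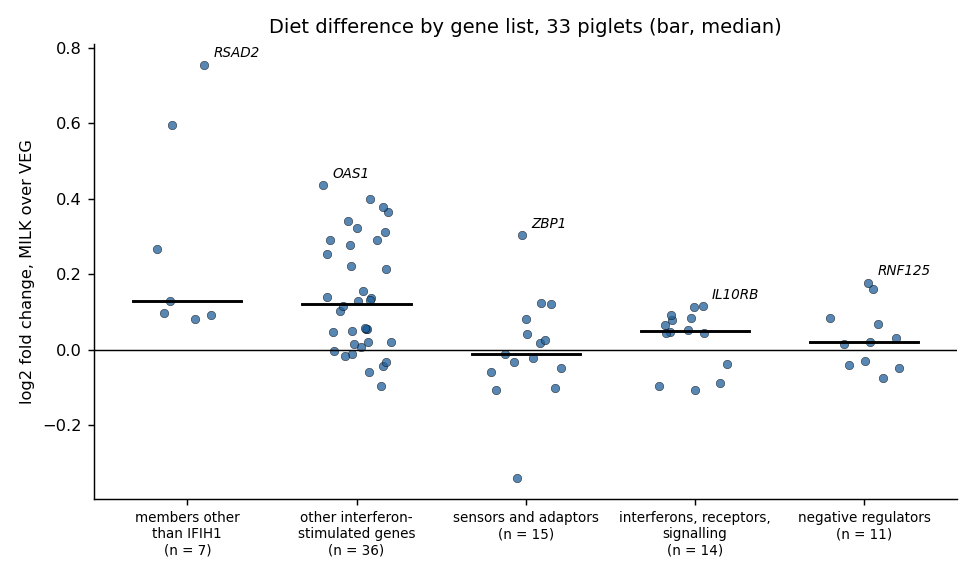
Log2 fold change (MILK over VEG) in 33 piglets of the tested genes on 5 lists, IFIH1 left out, each point 1 gene, with the list median as a bar and the highest gene of each list named. The median is 0.13 for the 7 members other than IFIH1, 0.12 for the 36 other interferon-stimulated genes, and between -0.01 and 0.05 for the other 3 lists.

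Other genes of the interferon pathway were taken from 4 lists. Of 54 other interferon-stimulated genes, 42 had a counted identifier and 36 were tested. None of the 36 passed the adjusted threshold for diet, and 1 had an unadjusted p under 0.05, HERC6, with a log2 fold change of 0.34 ± 0.16 (SE, unadjusted p = 0.0354 in edgeR). After it came PSMB9, an immunoproteasome subunit (0.28 ± 0.14, unadjusted p = 0.0514 in edgeR), and SP110, a nuclear body protein (0.14 ± 0.07, unadjusted p = 0.0592 in edgeR). The 1 of 36 stands against the 1.95% of all genes given above. The log2 fold change was above 0 for 29 of the 36, against 48.0% of all genes, with a median of 0.12, which was 0.07 without piglet 224 and 0.16 over all 36 libraries. These genes are not independent of each other, and for sex 30 of the same 36 were above 0, against 55.5% of all genes.

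Of the sensors of nucleic acids and their adaptors, 15 were tested and 0 passed at either threshold for diet, with a median log2 fold change of -0.01. The smallest p were those of TBK1, the kinase downstream of the sensors (-0.34 ± 0.21, unadjusted p = 0.122 in edgeR, 3 to 41 counts), ZBP1, a sensor of Z-form nucleic acid (0.30 ± 0.23, unadjusted p = 0.202), and TRIM25, the ubiquitin ligase that acts on RIG-I (0.12 ± 0.10, unadjusted p = 0.233). RIG-I itself had 0 to 16 counts per library and did not pass the filter.

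Of the interferons, their receptors and their signal transducers, 14 were tested and 0 passed at either threshold for diet (median 0.05). The interferon genes themselves were at the limit of detection, with 0 counts for IFNB1 in all 33 libraries and at most 1 for IFNG. The receptor chains IFNAR1 (0.05 ± 0.04, unadjusted p = 0.189) and IFNAR2 (0.08 ± 0.07, unadjusted p = 0.254) and the transducer STAT2 (0.08 ± 0.06, unadjusted p = 0.143) had small log2 fold changes for diet in edgeR. The kinases JAK1 (0.04 ± 0.03, unadjusted p = 0.0859) and JAK2 (-0.10 ± 0.06, unadjusted p = 0.117 in edgeR) differed in sign, and IRF9 had 0 to 12 counts and was not tested. Of 11 negative regulators tested, 0 passed at either threshold for diet (median 0.02), the smallest p being those of RNF125 (0.18 ± 0.10, unadjusted p = 0.0697 in edgeR), PTPN11 (0.07 ± 0.04, unadjusted p = 0.0875) and CYLD (0.08 ± 0.05, unadjusted p = 0.119). Across piglets the 4 lists had median r with IFIH1 of 0.468 (other interferon-stimulated genes), 0.173 (sensors), 0.156 (interferons, receptors and signalling) and 0.086 (negative regulators), where the median over all genes was 0.00896.

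A marker of blood and another of vessel cells had an unadjusted p under 0.05 for diet, with an adjusted p of 0.985 for both. The red blood cell gene HBB had a log2 fold change for diet of -1.09 ± 0.34 (SE, unadjusted p = 0.00308 in edgeR), and AHSP, which stabilises alpha globin, one of -0.79 ± 0.39 (unadjusted p = 0.0503). For HBB this was -0.57 ± 0.47 in NBW piglets (unadjusted p = 0.233 in edgeR) and -1.61 ± 0.47 in IUGR piglets (unadjusted p = 0.00174 in edgeR). The 4 red blood cell markers with an identifier (of 5 listed) summed to 4.99 to 27.1 CPM in VEG-NBW (median 8.01), 2.80 to 67.3 CPM in VEG-IUGR (median 8.17), 3.86 to 14.7 CPM in MILK-NBW (median 8.10) and 1.92 to 9.75 CPM in MILK-IUGR (median 5.75). The endothelial gene PECAM1 had a log2 fold change for diet of 0.29 ± 0.09 (unadjusted p = 0.00334 in edgeR). The other endothelial markers tested had smaller ones, CLDN5 0.04 ± 0.07 (unadjusted p = 0.575), FLT1 0.08 ± 0.08 (unadjusted p = 0.301) and CDH5 0.12 ± 0.10 (unadjusted p = 0.237 in edgeR). The 4 endothelial markers summed to 140 to 210 CPM in VEG-NBW, 163 to 237 CPM in VEG-IUGR, 180 to 241 CPM in MILK-NBW and 127 to 225 CPM in MILK-IUGR. Most of this sum is CLDN5 (median 121 CPM, against 23.2 CPM for PECAM1). The 8 microglia markers summed to 92.7 to 266 CPM over all groups and none passed at an unadjusted p under 0.05 for diet. Across piglets, the 8 genes correlated with HBB at r = -0.214 to 0.0522, with PECAM1 at r = -0.297 to 0.200 and with the summed microglia markers at r = 0.0251 to 0.282, and no adjusted permutation p for these was below 0.879 (Pearson) or 0.588 (Spearman). The adjustment was over 40 relations, which also took in the total gene count and the share of unassigned reads. The strongest of the 40 was that of IFIH1 with the total gene count (r = -0.386, permutation p = 0.0256, rho = -0.333, permutation p = 0.0576, adjusted p = 0.879 and 0.588, and r = -0.304 without 2 piglets). The part of these cells in the diet differences was not tested beyond these values.

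No difference between the birth weight classes passed a threshold in these genes over the 33 libraries. In edgeR 0 of 15356 genes (0%) were called, as in DESeq2 and limma voom. At an unadjusted p under 0.05 were 2.19% of all genes but 0 of the 8. With 1 library left out it was 0 or 1 of the 8. Without piglet 201 of VEG-IUGR it was IRF7, with a log2 fold change of -0.21. The largest differences were those of RSAD2 (log2 fold change IUGR over NBW -0.38 ± 0.36, SE, unadjusted p = 0.292) and MX2 (-0.38 ± 0.27, unadjusted p = 0.160 in edgeR), with intervals of -1.11 to 0.35 and -0.92 to 0.16. Without piglet 224 these were -0.05 and -0.13. IFIH1 had a log2 fold change of -0.06 (interval -0.48 to 0.37, unadjusted p = 0.787 in edgeR). Within VEG piglets (VEG-IUGR against VEG-NBW) edgeR called 0% of genes, with 2.29% at an unadjusted p under 0.05. Within MILK piglets it also called 0%, with 6.24% at an unadjusted p under 0.05, and 0 of the 8 genes were among them in either contrast.

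Whether the effect of diet depended on birth weight was tested as an interaction. There, edgeR called 0% of genes, as did DESeq2 and limma voom, with 6.09% of all genes and 0 of the 8 at an unadjusted p under 0.05. The interaction of IFIH1, the difference between its diet log2 fold changes in IUGR and NBW, was -0.0049 ± 0.43 (SE, interval -0.89 to 0.88, unadjusted p = 0.991 in edgeR), an interval wide enough to hold a difference larger than the diet effect itself. For MX2 it was -0.10 ± 0.54 (unadjusted p = 0.849) and for RSAD2 -0.27 ± 0.73 (unadjusted p = 0.717 in edgeR), and both turned to 0.39 without piglet 224. In the diet contrast within NBW (MILK-NBW against VEG-NBW) 0% of genes were called and 6.67% had an unadjusted p under 0.05, and in that within IUGR (MILK-IUGR against VEG-IUGR) 0% and 3.9%. Leaving IFIH1 aside, 0 of the 7 genes passed at an unadjusted p under 0.05 in either contrast. RSAD2 had log2 fold changes of 0.89 ± 0.52 in NBW and 0.62 ± 0.52 in IUGR (SE), and MX2 0.65 ± 0.38 and 0.54 ± 0.38. Of the 36 other interferon-stimulated genes, 2 had an unadjusted p under 0.05 for the interaction and were named after their values were seen, GBP2, a guanylate-binding protein (0.40 ± 0.13, unadjusted p = 0.00339 in edgeR), and ZNFX1 (-0.16 ± 0.08, unadjusted p = 0.0401 in edgeR), with adjusted p of 0.784 for both.

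In the same model sex gave calls elsewhere in the genome: 25 genes (0.163%) were called and 2.94% of all genes had an unadjusted p under 0.05. None of the 8 genes passed at either threshold. Their log2 fold changes (male over female) were all above 0, from 0.008 (ISG15) to 0.43 (MX2, SE 0.27, unadjusted p = 0.124 in edgeR). The diet fits include sex as a covariate.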

How the data were processed

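The authors extracted RNA from frozen cerebellum and had it sequenced as paired-end reads. The deposited values are raw counts, without normalization, of the read pairs on each Ensembl gene of the pig, in 1 table per piglet. The submitters' processing notes name Trim Galore, HISAT2, HTSeq, DESeq2 and the build Sscrofa11.1. Versions, annotation release and strand setting are not given in the sources used here, so whether reads from the opposite strand were counted is not known. Reads that could belong to several annotated genes were set aside as ambiguous, among the unassigned reads. Rows of unassigned reads were kept out of library sizes. Symbols and positions came from NCBI RefSeq's table of the same build.

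Here, counts of 33 libraries were scaled by TMM, filtered with filterByExpr (minimum count 10) and tested with edgeR 4.0.16 in R 4.3.3 (quasi-likelihood F test, 2-sided, Benjamini-Hochberg adjustment over 15356 genes), with sex in each model. Diet and birth weight shared 1 model, the interaction and the contrasts in a model of the 4 group means. DESeq2 1.42.0 and limma 3.58.1 were among 8 alternatives, beside leaving out each library. Correlations used log2 CPM (prior count 2) and 100000 permutations. The fits were tested on simulated data. Genes named outside the 9 were, by rule, the 3 smallest p for diet in each list, the receptors and transducers of type I interferon and the 5 genes most like IFIH1 (a gene that the rule named is not reported here), and blood and vessel markers were named after their values were seen. The members and lists were chosen with earlier results of these data known. Replicate numbers are in accession order. The tests and permutations set differences against the spread between piglets and take piglets as independent. The piglets came from a smaller number of litters, which the labels do not give. Intervals of fold changes cover that spread, and the counting error given for each gene covers counting only. A planned search for promoter motifs was not run, as no sequences were used here.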

Additional observations from a re-analysis of the deposited data

Results flagged for a closer look

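In 7 of 32 tests (8 genes in 4 groups of 8 or 9 piglets), the highest piglet lay so far above the next that its gap, as a share of the group's range, exceeded Dixon's 95% critical value. Chance gives a gap of this size, at the highest or the lowest end, in about 1 of 20 groups if the values are normally distributed. The gaps were taken on CPM without a log, and whether these values are normal was not tested. MX1 and IRF7 came closest to the critical value (0.588 and 0.558 against 0.526). The 8 genes are correlated, so the 7 are not independent. In MILK-NBW it was piglet 224 each time. Its level was 5.47 CPM for IFIH1 (other piglets of the group up to 2.74), 80.5 CPM for MX1 (up to 54.9), 51.3 CPM for MX2 (up to 15.9), 53.6 CPM for ISG15 (up to 35.8), 37.4 CPM for IFIT1 (up to 19.2) and 17.7 CPM for RSAD2 (up to 6.14). For IRF7 it was piglet 201 of VEG-IUGR, at 11.8 CPM against up to 7.71 CPM in the rest of its group. Piglet 224 did not stand apart in this way for IFIT2, and its summed microglia markers were exceeded in 20 of 33 piglets.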

How the results depend on the processing

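None of the 8 genes was called in any comparison under any of the 8 alternatives or, for diet, birth weight and the interaction, with any 1 library left out. The alternative that asked for at least 10 counts in every library did not test RSAD2, whose lowest count was 8. For diet, the number of the 7 genes other than IFIH1 at an unadjusted p under 0.05 was 2. It was 0 with limma voom, 1 over all 36 libraries, and 0 to 3 with 1 library left out (0 without piglets 215, 224, 231 or 232). With at least 10 counts in every library it was 1, but there the filter itself had removed RSAD2.

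Over all 36 libraries these log2 fold changes turned in sign: ISG15 and IRF7 for diet (-0.23 and -0.23), birth weight (0.12 and 0.12), MILK-IUGR against VEG-IUGR (-0.61 and -0.68), VEG-IUGR against VEG-NBW (0.50 and 0.57) and sex (-0.32 and -0.16), ISG15 for the interaction (-0.77), IFIH1 and MX2 for the interaction (0.24 and 0.16), IFIT2 for VEG-IUGR against VEG-NBW (-0.10) and MX1 for MILK-IUGR against MILK-NBW (0.013). With limma voom they were IFIT2 for diet (-0.047) and MILK-IUGR against VEG-IUGR (-0.028), MX1 for birth weight (-0.00055), MILK-IUGR against VEG-IUGR (-0.0041) and sex (-0.012), ISG15 for the interaction (-0.0018) and sex (-0.0050), IFIH1 for VEG-IUGR against VEG-NBW (0.076) and RSAD2 for sex (-0.069). Without piglet 207 they were IFIH1 (0.054) and MX2 (0.015) for the interaction and ISG15 for sex (-0.0063), and the interaction of IFIH1 was 0.0039 in DESeq2 and 0.00038 with its size factors. The cause was not tested.

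With 1 library left out, signs turned within these ranges: IFIH1 (-0.15 to 0.040) and MX1 (-0.026 to 0.097) for birth weight, IFIT2 for diet (-0.090 to 0.15), and for the interaction IFIH1 (-0.22 to 0.19), MX2 (-0.27 to 0.39), RSAD2 (-0.47 to 0.39), IFIT2 (-0.050 to 0.30) and IRF7 (-0.19 to 0.013). The median r of the 28 pairs was 0.595 to 0.698 then, 0.575 without the 2 piglets farthest from the median of 1 gene of the pair, and 0.565 without piglets 224 and 232.

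Over all genes, MILK-NBW against VEG-NBW gave 2 calls in DESeq2, 1 in limma voom and 1 without piglet 207. MILK-IUGR against MILK-NBW gave 1 call without piglet 207, in DESeq2, with its size factors, with at least 10 counts, without sex and in limma voom, and sex gave 7 with at least 10 counts in every library. No paired analysis was possible because the labels give no numbers shared between groups. At 34 to 48 median counts, IFIH1, IFIT2 and RSAD2 carry counting errors of 14.4 to 17.1%, which limits small differences in them.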
